A study of Mus musculus with 8 samples.

Results

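The regions described here are 538 peaks of open chromatin that lay away from promoters and had nearly the same accessibility in all 4 sorted populations of mouse medullary thymic epithelial cells (mTEC). They were selected on their measured values. A merged peak was a candidate when it lay over 1000 and up to 100000 bases from the nearest transcription start site and its detailed annotation was neither a repeat nor a CpG island. Each library was then scaled to 1000000 tags within the merged peaks, the scaled tags used as the level throughout, and a candidate was kept when its smallest population mean was at least 20 and its largest mean was at most 1.5 times the smallest. Of 74090 merged peaks 39199 were candidates, 1083 of these passed the floor of 20, and 538 also passed the fold limit. The members were thus 1.37% of the candidates and 49.7% of those over the floor. The 545 peaks over the floor and over the fold limit are called the variable distal peaks below.

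Chromatin was profiled by ATAC-seq, in which a transposase inserts sequencing adapters into accessible DNA, in cells sorted from enzyme-digested C57BL/6 thymus after a Percoll gradient. All gates were CD45 negative and Epcam positive. The mTEC-I gate added low MHCII and Itgb4, mTEC-II high MHCII, mTEC-III Ly6D, and mTEC-IV low MHCII, absence of Itgb4 and presence of L1cam, with 2 libraries for each population. The labels give neither the age of the mice nor the animals behind the 2 libraries of a population. The p-values therefore reflect only how far these libraries spread, and that spread may be technical.

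Distal accessible sites include enhancers, which act on promoters over a distance, insulators bound by CTCF, and start sites of alternative transcripts. Promoters of widely used genes tend to be open in most cell types, whereas enhancers are known for opening in 1 lineage or state. Medullary thymic epithelial cells show self antigens to developing T cells, and their subsets range from MHCII-low cells that adhere to matrix, through MHCII-high cells that present antigen, to differentiated and tuft-like cells.

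The members' own sequences are not shown, because their coordinates are in the mm9 build and no genome of that build was used here. The stretches below are the 250 bases before the RefSeq start (GRCm38.p6) of 4 genes with a member nearby. H2-DMb2, H2-D1 and Nfkbia are shown because their promoter peaks differed between populations while the distal member, as the rule required, varied by less than 1.5-fold, and Rplp0 because its promoter peak was the flattest among the named genes. These 4 were chosen after their values were seen. Capitals mark matches on either strand to the motifs searched in all promoters, and a match is a description of letters only. In H2-DMb2 (chr17:34144999-34145248, plus strand) they mark the STAT motif TTCNNGGAA, in H2-D1 (chr17:35262844-35263093, plus strand) NF-kB, in Nfkbia (chr12:55492648-55492897, minus strand) the IRF motif GAAANNGAA, NF-kB and the KLF or SP motif GGGCGG, and in Rplp0 (chr5:115559217-115559466, plus strand) GGGCGG and the CTCF core.
H2-DMb2: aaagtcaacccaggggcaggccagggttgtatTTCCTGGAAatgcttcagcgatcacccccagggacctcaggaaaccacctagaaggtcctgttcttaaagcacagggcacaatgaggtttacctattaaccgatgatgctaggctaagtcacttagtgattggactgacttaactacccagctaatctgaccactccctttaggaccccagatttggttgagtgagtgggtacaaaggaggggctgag
H2-D1: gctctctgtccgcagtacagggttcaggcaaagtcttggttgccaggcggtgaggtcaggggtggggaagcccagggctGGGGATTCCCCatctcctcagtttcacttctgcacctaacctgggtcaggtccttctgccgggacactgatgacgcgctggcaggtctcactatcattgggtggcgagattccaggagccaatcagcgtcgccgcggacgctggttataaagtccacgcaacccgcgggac
Nfkbia: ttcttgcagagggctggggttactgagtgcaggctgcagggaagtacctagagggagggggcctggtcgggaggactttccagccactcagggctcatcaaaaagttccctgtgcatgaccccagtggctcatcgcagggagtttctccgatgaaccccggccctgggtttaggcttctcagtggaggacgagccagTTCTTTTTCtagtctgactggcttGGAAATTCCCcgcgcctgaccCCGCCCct
Rplp0: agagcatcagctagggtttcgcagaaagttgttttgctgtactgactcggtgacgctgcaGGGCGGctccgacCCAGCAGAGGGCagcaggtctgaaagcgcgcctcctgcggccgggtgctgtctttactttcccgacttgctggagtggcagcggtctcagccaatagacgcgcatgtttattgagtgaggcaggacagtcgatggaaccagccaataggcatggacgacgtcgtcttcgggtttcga

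The libraries held 3606436 to 10374623 tags, of which 8.44% to 19.7% lay in merged peaks, with the lowest shares in both mTEC-III libraries (8.44% and 11.0%). The floor of 20 therefore stood for 8.66 tags in mTEC-III replicate 1 and 33.8 tags in mTEC-I replicate 1. At least 10 tags were found in every library for 459 of 538 members (85.3%). All 4 epithelial and all 4 thymic epithelial marker genes had a promoter peak, with summed levels of 174 to 259 and 97.9 to 162 scaled tags. None of 4 T cell or 3 B cell markers had one. Cd68 was the only one of 4 myeloid markers with a promoter peak (0.294 to 16.7), Kdr the only one of 3 endothelial markers (0.691 to 6.21), and Col1a1 and Pdgfra of 3 mesenchymal markers summed to 17.9 to 50.2. In sorted bulk cells, a smaller share of open cells and a lower opening in each cell cannot be told apart.

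**Figure D1:**
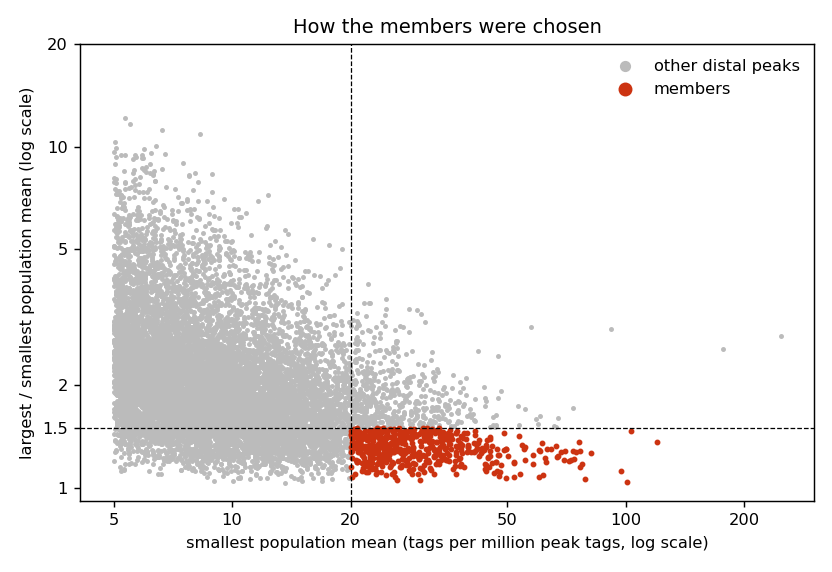
Each dot is a distal candidate whose smallest population mean was at least 5, with that mean on the x axis (scaled tags) and the largest over the smallest population mean on the y axis, both on log scales. The dashed lines are the floor of 20 and the fold limit of 1.5, and the 538 members fill the lower right corner up to a smallest mean of 120.

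The members' accessibility had a median of 31.7 scaled tags, from 21.01 to 142, and the ratio of largest to smallest population mean had a median of 1.31, from 1.04 up to the limit. These values follow from the choice and carry no test. The middle of the distribution, between its quartiles, was 1.22 to 1.41, and the ratio was at most 1.1 in 19 members, so ratios near 1 were the exception. The highest population was mTEC-II in 178 members, mTEC-IV in 131, mTEC-III in 129 and mTEC-I in 100, and the lowest was mTEC-I in 189, mTEC-IV in 146, mTEC-III in 106 and mTEC-II in 97. This order depended on the scaling. With TMM factors on top of the peak totals, the lowest was mTEC-I in 179, mTEC-III in 156, mTEC-II in 123 and mTEC-IV in 80. Just inside the fold limit lay the members near Hist1h1c, Ube2q2 and 4930455G09Rik, with ratios of 1.498, 1.496 and 1.495, and just outside it candidates near Slc52a3, with 1.5016, and near 1700017B05Rik, which exceeded the limit by less. Just inside the floor lay members near Btd, Yeats4 and 1700052I22Rik, with smallest means of 20.001, 20.012 and 20.032, and just outside it candidates near Zzz3, Plxnb2 and Ly86, with 19.997, 19.969 and 19.936.

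Single libraries varied more than the population means. The ratio of the highest to the lowest of the 8 libraries had a median of 1.69, from 1.15 to 3.63. All 8 libraries lay within 1.5-fold in 118 members (21.9%), within 2-fold in 445 (82.7%), and at or over the floor in 398 (74.0%). In 388 members (72.1%) the largest difference between 2 replicates, on a log2 scale, exceeded the log2 ratio of the population means that the rule limited. The median absolute log2 difference between replicates was 0.20 in mTEC-I, 0.22 in mTEC-IV, 0.28 in mTEC-II and 0.30 in mTEC-III, while the members' median tags per library were 53.8 and 42.5, 34.8 and 47.3, 21.5 and 32.5, and 14.5 and 23.5 in that order. The 4 largest replicate differences were all in mTEC-III. The member near Shisa4 had 40.4 and 11.1 scaled tags in the mTEC-III libraries, and 20.9 to 31.2 in the other 6. The member near Nr2f2, a nuclear receptor gene, had 15.0 and 49.35 in mTEC-III and 25.3 to 44.3 in the others. At both members the mTEC-III mean lay among the other libraries, while its 2 libraries lay outside their range on either side.

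Of the 6 members with the highest accessibility, 4 lay within 2 kb of a start site. Jund, which encodes a subunit of the AP-1 transcription factor, had the highest member, 1076 bases downstream of its start in an annotated 5′ untranslated region (mm9 chr8:73222502-73222927). Its level was 120 and 130 scaled tags (mTEC-I), 190 and 130 (mTEC-II), 156 and 172 (mTEC-III), then 130 and 110.5 (mTEC-IV). The mTEC-III libraries were both above those of mTEC-I and mTEC-IV, and the mTEC-II libraries spanned most of the range. The second highest, nearest to the start of H2-DMb2, lay inside H2-DMa, in exon 2 of 6, annotated as 5′ untranslated (mm9 chr17:34272266-34272614). H2-DMa and H2-DMb2 encode the chains of H2-M, which exchanges peptides on MHC class II. This member had 124 and 118 (mTEC-I), 162 and 142 (mTEC-II), 121 and 109 (mTEC-III), then 106 and 101 (mTEC-IV). Both mTEC-II libraries lay above the other 6, and both mTEC-IV libraries lay lowest.

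The member near Fdft1, the gene of squalene synthase in cholesterol synthesis, combined the fourth highest level with the smallest ratio of all (1.04). It lay 1571 bases downstream of the start in exon 3 of 10, annotated as 5′ untranslated. Its level was 102 and 109 (mTEC-I), 100.2 and 102 (mTEC-II), 107 and 98.7 (mTEC-III), then 90.5 and 114 (mTEC-IV), so the mTEC-IV pair spanned all other libraries. The member in the last intron of Clec11a, which encodes a secreted lectin growth factor, ranged from 93.5 to 121 over the 8 libraries. The member near Ssc4d, of the scavenger receptor cysteine-rich family, had 103 and 104 in mTEC-III and 80.2 to 92.9 in the other 6, so mTEC-III did not overlap them. The member in the first intron of Sin3a, the scaffold of a histone deacetylase complex, had 108 and 99.6 in mTEC-I and 75.4 to 93.5 in the other 6. After Fdft1 the smallest ratios belonged to members near the olfactory receptor gene Olfr94 (1.06), Fam76a (1.06), Msantd4 (1.06), the histone demethylase gene Kdm6b (1.07) and the Golgi protein gene Acbd3 (1.08).

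**Figure D2:**
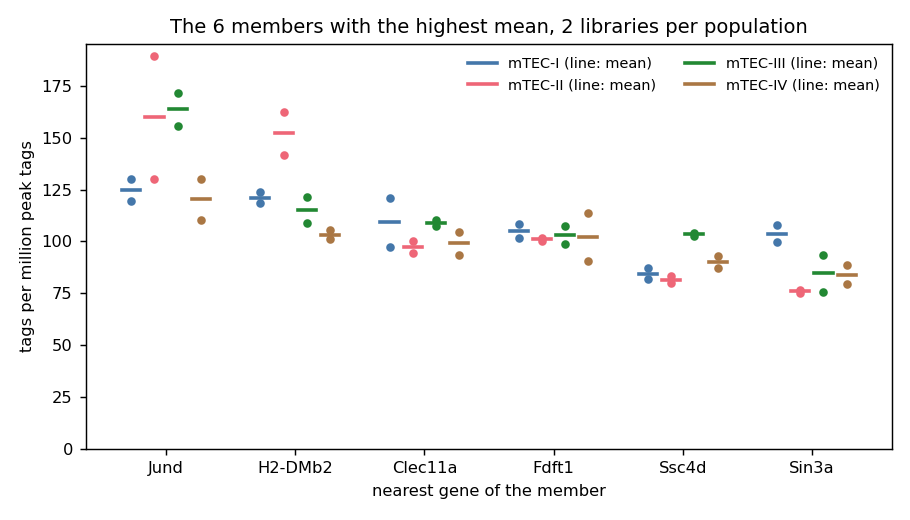
Accessibility in scaled tags of the 6 members with the highest mean, named by nearest gene, with 1 dot for each library and a line at each population mean. The member near Fdft1 stayed within 90.5 to 114 in all 8 libraries, while both mTEC-II libraries stood above the others at H2-DMb2.

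The 538 members were nearest to 516 genes, few of which stood in the 12 gene lists. The list of AP-1, TEAD and stress factors holds some genes that respond early to signals and to cell handling. It had 6 members of its 139 candidates (nearest to Jund, Ier2, Dusp1, Tead1 and, with 2, Fosb) and 8 variable distal peaks. The immediate early gene Ier2 had its member 23313 bases downstream of the start in the last of 46 exons of a transcript, at 64.7 to 96.3 in the 8 libraries. The list of MHC and antigen presentation had 4 members of 70 candidates (H2-DMb2, H2-D1, H2-Oa and H2-Ob) and 9 variable peaks. The 2 members near H2-Oa and H2-Ob, which encode the chains of the H2-M inhibitor H2-O, had population means of 23.03 to 30.6 and 23.4 to 31.0.

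The NF-kB list had 4 members of 147 candidates and 10 variable peaks. Its members were nearest to Bcl3 and Nfkbia, whose products bind and restrain or modify NF-kB dimers, to Nfkb1, which encodes the p105 precursor, and to the adaptor gene Traf3. The Bcl3 member, in intron 2 of 8, had 52.0 and 46.2 (mTEC-I), 47.4 and 50.6 (mTEC-II), 60.045 and 29.9 (mTEC-III), then 34.0 and 39.99 (mTEC-IV), and the mTEC-III pair covered the whole range. Bcl3 and Nfkbia also stood among the genes with a variable peak. In all, 42 genes were nearest both to a member and to a variable distal peak.

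The epithelial list had 3 members of 218 candidates and 11 variable peaks. A member 19972 bases downstream of the start of Krt8, a simple-epithelial keratin, ranged from 27.7 in mTEC-III replicate 1 to 54.2 in mTEC-IV replicate 2, and mTEC-III replicate 2 was second highest at 52.8. The epithelial transcription factor gene Grhl1 held 2 members in its intron 6 of 13, with population means of 27.1 to 36.8 and 24.4 to 33.3. The chromatin list had 2 members of 88 candidates, both at Kdm6b. The first, 5326 bases upstream, ranged from 45.0 to 59.98 over the libraries, and the second, in intron 1 of 22, had 38.1 and 33.6 (mTEC-I), 54.4 and 39.0 (mTEC-II), 55.4 and 37.5 (mTEC-III), then 53.3 and 52.9 (mTEC-IV). Thus 2 members of 1 gene took opposite ends of the permitted range.

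The cell cycle list had 2 members of 58 candidates, near cyclin D3 (Ccnd3, 50.9 to 76.2) and the proliferation antigen Mki67 (29.5 to 47.9). The housekeeping list had 1 of 55 candidates, which was nearest to the ribosomal protein gene Rplp0 but lay 20623 bases upstream of it in intron 1 of 10 of Pxn, a focal adhesion gene, at 32.2 to 46.6. Of the thymic epithelial regulators only the chemokine gene Cxcl12 had a member, 1532 bases upstream, with 24.8 and 26.3 (mTEC-I), 29.5 and 28.0 (mTEC-II), 30.0 and 15.3 (mTEC-III), then 21.1 and 20.7 (mTEC-IV). The lists of tuft cells (79 candidates), thymocytes (35) and B, myeloid and dendritic cells (14) had no candidate over the floor and so could have no member. The list of mesenchyme and endothelium (50 candidates) had 1 over the floor, a variable peak near Pecam1. The lists of cell cycle, chromatin, housekeeping genes and thymic epithelial regulators had 1, 2, 4 and 0 variable peaks. Members were 1.37% of all candidates, and the lists' small numbers bear no ranking.

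Several genes had more than 1 member. Shf, which encodes an SH2 domain adaptor, had 3, at 20141 bases downstream and at 6682 and 8562 bases upstream of its start, with population means of 25.8 to 36.1, 39.7 to 53.1 and 35.9 to 46.6. A further 20 genes had 2. Both members nearest to the nuclear receptor gene Ppard lay inside Def6, in intron 7 of 10 and exon 9 of 11, and both nearest to Gm5069 lay in intron 2 of 7 of Itpkb. The 2 members 42183 and 42914 bases from the start of the mitotic kinase gene Wee1 had population means of 70.2 to 90.2 and 43.2 to 55.3. Of 194 members within or at the end of a transcript that could be named, 127 lay in the nearest gene and 67 in another, so the nearest gene is a name for the position and not a target.

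The equality depended on how libraries were scaled. Members took 1.89% to 2.03% of the tags in merged peaks in every library. Relative to all tags, their share was 0.168% and 0.219% in the mTEC-III libraries and 0.279% to 0.379% in the other 6. In the deposited values, scaled to 10000000 total tags, the median member had 62.7 and 60.4 (mTEC-I), 59.6 and 52.3 (mTEC-II), 28.3 and 35.9 (mTEC-III), then 57.8 and 45.5 (mTEC-IV), and both mTEC-III medians lay below the other 6. On that scale mTEC-III was the lowest population in all 538 members, with a median difference of -0.83 on the log2 scale from the other 3, and 13 members (2.42%) stayed within 1.5-fold. With TMM factors on top of the peak totals, 494 members stayed within it. The label of equal opening thus held per tag in peaks and did not hold per tag sequenced. The authors' fold of each called peak over its surrounding 10 kb, which compares sites within 1 library, had member medians of 17.7 and 18.2 (mTEC-I), 17.2 and 14.5 (mTEC-II), 16.6 and 14.5 (mTEC-IV) and 12.2 and 12.2 (mTEC-III). Only members with a called peak entered, from 361 in mTEC-III replicate 1 to 530 in mTEC-I replicate 1. Promoter peaks had medians of 16.5 and 17.7, 17.9 and 14.6, 16.6 and 13.75, and 13.9 and 13.66 in the same order. At promoters mTEC-III replicate 1 lay above mTEC-IV replicate 2, so the mTEC-III libraries did not stand apart. The variable distal peaks had medians of 11.3 and 10.95 in mTEC-III and 11.98 to 15.44 in the other 6. Lower folds in both mTEC-III libraries were thus shared with the variable distal peaks. Up to a constant, a deposited value is the level per tag in peaks times the library's share of tags in peaks. That share was 8.44% and 11.0% in mTEC-III and 14.2% to 19.7% in the other 6. Members chosen as equal per tag in peaks were thus lower in mTEC-III on the deposited scale by construction. The part of that share in the local folds was not tested.

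**Figure D3:**
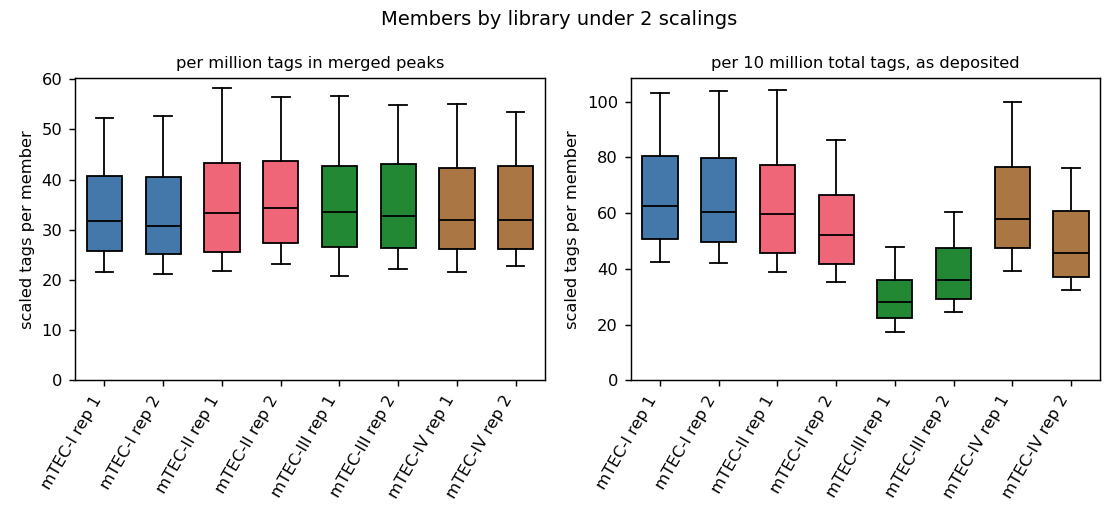
Box plots of the 538 members' values in each library (box: quartiles, line: median, whiskers: 10th to 90th percentile), scaled to tags in merged peaks on the left and, as deposited, to total tags on the right. Medians are level on the left, and on the right both mTEC-III medians (28.3 and 35.9) lie below the other 6 (45.5 to 62.7).

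A test over the 4 populations gives the background. With limma on TMM-scaled log2 values, 29686 of 59943 tested peaks (49.5%) differed at an adjusted p of at most 0.05. All 538 members were tested and 1 (0.186%) was called, and since the rule used the same values nothing is read from that count. By pairs, the background was 19.9% for mTEC-I against mTEC-II, 23.1% for mTEC-I against mTEC-III, 42.5% for mTEC-I against mTEC-IV, 0.0551% for mTEC-II against mTEC-III, 27.2% for mTEC-II against mTEC-IV and 22.7% for mTEC-III against mTEC-IV, and 57.5% for at least 1 pair. Among the members 9 were called for mTEC-I against mTEC-IV, 4 for mTEC-III against mTEC-IV, 3 for mTEC-II against mTEC-IV and none for the other 3 pairs, 16 in all (2.97%). The member called over all populations, named after its values were seen, lay 3175 bases downstream of the microRNA gene Mir26b at the end of Ctdsp1. It had 57.3 and 74.7 scaled tags (mTEC-I), 58.3 and 46.4 (mTEC-II), 47.3 and 50.7 (mTEC-III), then 73.5 and 68.1 (mTEC-IV). The call (limma adjusted p = 0.0462) was lost with scaling to tags in merged peaks alone (limma adjusted p = 0.0934). It was also lost with the replicate number as a block (limma adjusted p = 0.0555), and held in the other settings with all 8 libraries. In the fits that left out 1 library, it was lost without 7 of the 8 in turn and held without mTEC-II replicate 1.

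The authors' peak lists, called in each library alone, held a peak at 328 members (61.0%) in all 8 libraries and at a further 145 in 7. The variable distal peaks were called in all 8 in 60.7% and all candidates in 2.53%. Coverage of the members was 97.0% to 98.5% in mTEC-I and mTEC-IV and 89.4% and 96.5% in mTEC-II. In mTEC-III it was 67.1% and 92.6%, and replicate 1, with the lowest coverage, also had the shortest list (10525 peaks). Under 5 lists held a peak at 17 members. The member 2636 bases upstream of Nfkbia was called in 3 lists although its level was 30.3 to 42.0 in all 8 libraries.

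Position was not limited by the rule beyond its distance window and the exclusion of repeats and CpG islands. Members lay closer to start sites than other candidates, with a median distance of 9277 bases against 20815 for all candidates and 10932 for the variable distal peaks. Between 1 and 2 kb lay 86 members (16.0%), against 10.1% of variable peaks and 4.39% of candidates. Members made up 61.0% of the candidates over the floor in this bin and 43.2% to 51.8% in the 5 bins beyond it. By annotation 54.1% of the members were intergenic (candidates 44.8%), 29.0% intronic (48.0%), 8.55% exonic (2.77%) and 1.49% in a 5′ untranslated region (0.148%). The variable distal peaks, which passed the same floor, had 55.2%, 32.5%, 4.22% and 0.367%. Members were also wider than candidates, with a median of 221 bases against 153, and variable peaks measured 246. On chromosome 7 lay 10.4% of the members and 9.72% of the variable peaks, against 5.96% of the candidates. The comparison with all candidates thus mixes equality with height, and the variable peaks give the comparison at the same floor. In these comparisons no difference was tested.

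**Figure D4:**
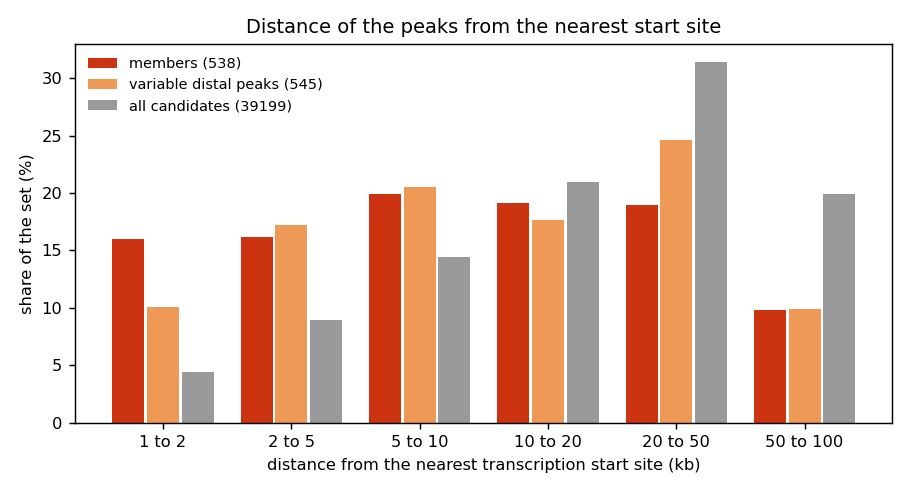
Share of each set (%, bars) by distance from the nearest start site in kb, for the members, the variable distal peaks and all candidates. The members exceed both other sets only in the bin from 1 to 2 kb, at 16.0% against 10.1% and 4.39%.

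Promoter peaks of the nearest genes did not enter the rule. Of the 516 genes 339 had a merged peak within 1000 bases of the start, and of 476 such peaks tested 88 differed between populations (18.5%, limma adjusted p of at most 0.05). The share was 21.1% for all 16185 tested promoter peaks, 23.1% for those of genes nearest to any candidate and 20.8% for those of genes nearest to a variable distal peak, so the genes beside members stood near the promoter background. Of 219 promoter peaks of member genes over the floor, 169 (77.2%) lay within 1.5-fold, against 74.6% of all promoter peaks over the floor. The count of 88 fell in each fit that left out a library of mTEC-I or mTEC-IV, and so did the called share of all peaks. By list, whether or not a member lay near, the test called 20 of 22 promoter peaks of the tuft cell list, 17 of 30 of the MHC list, 25 of 68 of the epithelial list, 7 of 25 of the thymic epithelial regulators, 10 of 45 of the AP-1 list and 8 of 37 of the NF-kB list. It called 4 of 36 of the cell cycle list, 4 of 41 of the housekeeping list and 2 of 54 of the chromatin list, and, of the lists of other cell types, 3 of 5 (B, myeloid and dendritic), 2 of 6 (mesenchyme and endothelium) and 1 of 5 (thymocytes).

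Promoter values are given below for genes chosen because their promoter peak was called. The rule capped the members at 1.5-fold, so a larger range at such a promoter than at its member follows from the choice and is no contrast between them. The H2-DMb2 promoter peak (mm9 chr17:34281972-34282173) had 36.1 and 29.6 scaled tags (mTEC-I), 60.6 and 45.4 (mTEC-II), 45.0 and 41.7 (mTEC-III), then 7.81 and 7.45 (mTEC-IV). Both mTEC-IV libraries lay far below the other 6, and the difference passed the test over populations (limma adjusted p = 2.2e-05) and in mTEC-II against mTEC-IV (log2 difference 2.59, standard error 0.26, adjusted p = 1.7e-05). The member 9921 bases upstream had its highest population mean in mTEC-II (152) and its lowest in mTEC-IV (103), and the promoter peak likewise had its highest in mTEC-II (52.98) and its lowest in mTEC-IV (7.63).

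The Nfkbia promoter peak 6 bases from the start had 83.6 and 80.5 (mTEC-I), 97.9 and 115 (mTEC-II), 93.5 and 91.7 (mTEC-III), then 54.2 and 54.6 (mTEC-IV). Again mTEC-IV lay below all other libraries (limma adjusted p = 0.00345 over populations). The distal member had 42.0 and 33.9 (mTEC-I), 31.1 and 35.9 (mTEC-II), 35.8 and 41.0 (mTEC-III), then 30.3 and 31.5 (mTEC-IV). Its lowest population mean was in mTEC-IV (30.9), but mTEC-II replicate 1 lay between the 2 mTEC-IV libraries. A second promoter peak of Nfkbia, 651 bases downstream, did not pass (0.607). H2-D1 encodes a classical MHC class I heavy chain, and its promoter peak had 83.6 and 83.7 (mTEC-I), 87.8 and 106 (mTEC-II), 112 and 93.8 (mTEC-III), then 53.8 and 67.1 (mTEC-IV). The test called it (limma adjusted p = 0.0249), and the call was lost without either mTEC-I library (0.0648 and 0.0649), without mTEC-III replicate 1 (0.0504) and without either mTEC-IV library (0.274 and 0.0560). The H2-D1 member, 4761 bases upstream, had its highest population mean in mTEC-IV (42.6 ± 3.05, SD, n = 2) and its lowest in mTEC-I (33.5 ± 2.18, SD, n = 2).

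The remaining calls among the promoter peaks of named genes were at 4930455G09Rik (0.00126), Shisa4 (0.00402 and 0.00155 at 2 peaks) and 1700052I22Rik (0.0360), and the limma adjusted p-values of all others tested were above 0.05. The 1700052I22Rik call was lost without 5 of the 8 libraries in turn, with an adjusted p of up to 0.290. The Rplp0 promoter had population means of 72.5, 70.7, 71.7 and 71.9 from mTEC-I to mTEC-IV (adjusted p = 0.909), and that of Cxcl12, at 0.779 to 10.6 in the 8 libraries, was lower than its member in every library.

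**Figure D5:**
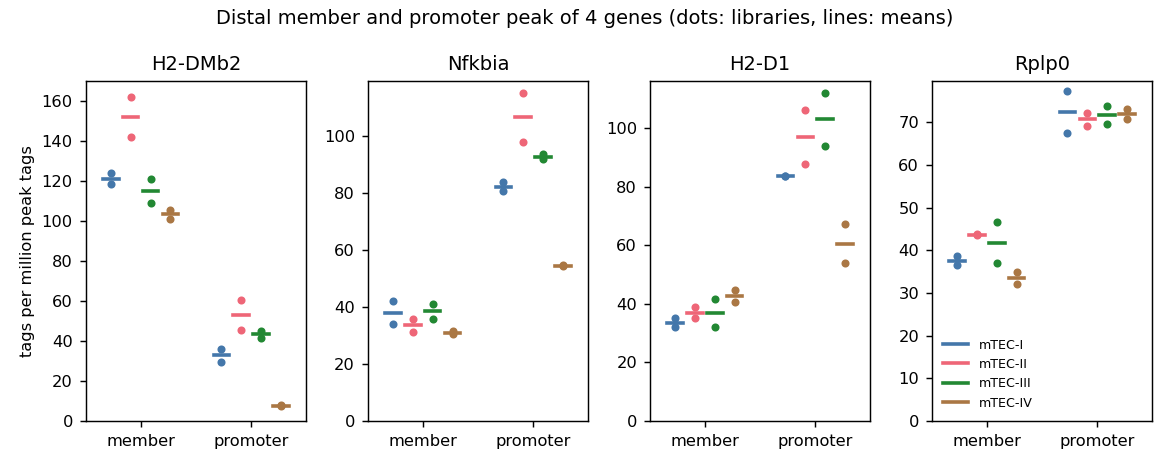
Accessibility in scaled tags of the distal member and of the promoter peak nearest to the start for 4 genes, with 1 dot for each library and lines at the population means. At H2-DMb2, Nfkbia and H2-D1 both mTEC-IV libraries lie below the other 6 at the promoter, and at Rplp0 all promoter libraries lie between 67.5 and 77.4.

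Other merged peaks near the members were compared as well, leaving out all candidates over the floor. Within 10 kb of a member 361 of 902 tested peaks (40.02%) differed between populations, and within 10 kb of a variable distal peak 445 of 976 (45.6%). The share within 10 kb of any candidate was 52.7%. That set also holds the candidates below the floor themselves, so it is no background of neighbours alone. Of the peaks over the floor near members, near variable distal peaks and near any candidate, 71.8%, 67.5% and 70.6% lay within 1.5-fold. With all members' neighbours counted, other candidates over the floor included, 375 of 930 (40.3%) were called. That count was lower in the fits that left out a library of mTEC-I or mTEC-IV, as was the called share of all peaks.

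RefSeq promoters (GRCm38.p6, 250 bases before to 50 after each start) matched 253 of the 339 member genes with a promoter peak, 342 sequences in all. The KLF or SP motif GGGCGG stood in 66.4% of them, in 66.6% of the promoters beside variable distal peaks, in 62.6% of 12414 promoters of genes with a promoter peak and in 35.7% of all 32851. The ETS motif CCGGAAG stood in 9.36%, 13.4%, 15.5% and 8.86% of these sets, NF-kB in 11.7%, 10.1%, 11.1% and 8.46%, and the CTCF core, as in the Rplp0 stretch above, in 1.75%, 0.896%, 0.806% and 0.557%. The CTCF share rests on 6 promoters. Median GC content was 61.7%, 62.7%, 60.7% and 52.7%, so the sets of open promoters and of all promoters also differed in base composition.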

How the data were processed

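ATAC-seq libraries of 4 sorted mTEC populations (2 each) were grouped by their titles. The reads were handled with HOMER, Picard 1.108 and bcl2fastq 2.15.0.4 on mm9, according to the submitters' processing notes. Aligner, duplicate removal and a shift of read ends: not given in the sources used here. HOMER findPeaks was run by the authors on single libraries, per the file headers (fragment length 300, false discovery rate 0.001, signal 4-fold over the local 10000 bases). The authors deposited for each peak a fold ratio over local background and a findPeaks score, used here only to rank peaks. The deposited merged table gives a signal in tags per 10000000 total tags. All its values were whole read ends (steps of 0.5 tags, tolerance 0.02 read ends).

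For the choice of members, each library was scaled to 1000000 tags in merged peaks. For tests, limma 3.58.1 (R 4.3.3, limma-trend) fitted log2(signal + 1) after TMM scaling, for peaks with a signal of at least 10 in at least 2 libraries, with 1 coefficient for each population, an F test and 6 pairs, and Benjamini-Hochberg adjustment over all peaks tested. Log2 differences are on that scale, which understates changes of low peaks. edgeR 4.0.16 and DESeq2 1.42.0 on the read ends, other scalings, filters, pseudocounts and left-out libraries were alternatives. The script was tested on simulated data. Intervals are not given, since peaks are not independent replicates.

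Members, gene lists and naming rule were chosen with earlier results of these data known. Named members are the 6 with the highest mean, the 6 with the smallest ratio, 3 on each side of each limit (1 of them is not reported here), the 4 genes with most members, the 4 largest replicate differences and up to 2 per gene list. Peak sequences and motifs in peaks were not analysed here.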

Additional observations from a re-analysis of the deposited data

How the results depend on the processing

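The rule kept 537 peaks with TMM scaling, of which 485 were members. When each library was left out in turn it kept 436 to 524, of which 409 to 470 were members. With the deposited scaling to total tags it kept 63, of which only 8 were members. It kept 168 at a stricter fold limit, 925 at a fold limit of 2, 1605 at a floor of 10, 91 at a floor of 40, and 113 when every single library had to meet it. With the deposited scaling the F test called 40769 of 59943 peaks (68.0%), so calls rose over all peaks. The shares were then 52.6% of the members, 55.0% of their genes' promoter peaks and 62.9% of their neighbours. With size factors 50.1% of all peaks were called, and with a filter of 20 it was 48.3% of 36969 tested. By edgeR it was 56.3% of 65091 and by DESeq2 41.6% of 74090. For calls in at least 1 pair, no share over all peaks with other settings is given here, so nothing about the members is read from those counts. Over all peaks the F test called 17865 with a filter of 20 and 16306 to 32926 without 1 library, and edgeR called 36643 and DESeq2 30828. Of the members, 283 were called with the deposited scaling, 5 with size factors, 2 by edgeR, 2 by DESeq2 and 0 to 25 without 1 library, the 25 without mTEC-III replicate 2. In at least 1 pair, 399 were called with the deposited scaling, 2 with in-peak totals, 10 without a filter, 34 by edgeR, 1 by DESeq2, and 0 to 47 without 1 library, the 47 without mTEC-III replicate 2 and the 0 without mTEC-IV replicate 1. Called promoter peaks of member genes numbered 262 with the deposited scaling and 47 to 115 without 1 library. Called neighbours numbered 585 with the deposited scaling, 164 within 5 kb, 1533 within 50 kb and 202 to 432 without 1 library. The members called in all 8 lists were 188 when at least 50% of the peak had to be covered and 145 with equal numbers of best-scored peaks. The cause of these shifts was not tested, except that a changed limit, filter or distance admits other peaks by construction.

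With the replicate number as a replicate block, the F test called 30212 peaks, 0 members, 89 promoter peaks and 384 neighbours, and 10 members were called in at least 1 pair. Deviations of same-numbered libraries were nearly uncorrelated (correlations of -0.01 to 0.03 across peaks). These values show no shared deviation, but they cannot tell whether libraries with the same number were sorted or prepared together. Tags in merged peaks were fewest in mTEC-III replicate 1, at a median of 14.5 tags per member, while total tags were fewest in mTEC-II replicate 1. The planned search for the CTCF core in the peaks was not run, since no genome of the mm9 build was used here.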
